A study of Mus musculus with 4 samples.

Results

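The proteasome is the protease complex that destroys ubiquitin-tagged proteins, and the genes for its subunits were followed here in cultured spermatogonial stem cells of the mouse, which divide to renew themselves and to found the sperm lineage. The members are all gene symbols of the Psma to Psmg series followed by a number and at most 1 letter. They came to 48 of the 22552 symbols in the expression tables, and 46 of them had a mean of at least 1 FPKM (fragments per kilobase of transcript, scaled to the mapped fragments of a library) over the libraries. The cells carried an inducible knockout of the microRNA miR-202 and had been derived from testes of DBA/C57 F1 males aged 5 to 7 days. After a night on laminin they received 10 µg/ml doxycycline, the inducer of the knockout, for 2 days or were left untreated. Each condition has 2 libraries, numbered replicate 1 and replicate 2, from single-cell clones named iKO-SC-1 and iKO-SC-2, though no title says which number is which clone, and all 4 carry the genotype label wild type. No cells given doxycycline without the inducible construct are listed, so the drug and the deletion cannot be told apart.

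The proteasome is built from a barrel-shaped core, whose outer rings are made of alpha subunits and whose inner rings are made of beta subunits, and from a cap that recognises, unfolds and feeds in the substrate. The core has 3 kinds of catalytic site, carried by Psmb5, Psmb6 and Psmb7. In cells of the immune system, and in others exposed to interferon gamma, these are exchanged for Psmb8, Psmb9 and Psmb10 to give the immunoproteasome, which favours peptides for display on MHC class I. Other activators can take the place of the cap, and germ cells have a core variant of their own, in which Psma8 replaces Psma7 in spermatocytes.

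Every library listed the target itself, Mir202, at 0 FPKM. The same held for 605 of the 606 microRNA symbols, so the zero is no check of the knockout. Summed FPKM came to 313981 and 320243 in the doxycycline libraries, against 309153 and 314507 in the untreated ones, and proteasome genes made up 1.34% and 1.34% of it with doxycycline and 1.31% and 1.31% without. The depth in reads is unknown, but whole-number steps among genes under 0.1 FPKM put the relative depths at 1 and 1.21 for the doxycycline libraries and at 1.33 and 1.55 for the untreated ones. The 18 spermatogonial markers summed to 1319 and 1305 FPKM with doxycycline and to 1297 and 1323 FPKM without. Their levels were uneven, with means from 0.209 FPKM for Dppa3 to 291 FPKM for Dazl. Over all 11924 genes averaging 1 FPKM or more, 33 passed limma's test at an adjusted p under 0.05, 26 higher (0.218%) and 7 lower (0.0587%) with doxycycline. These counts depended on the settings: 0 were higher and 1 lower with no filter on low values, 76 and 12 with a filter of 5 FPKM, 0 and 2 with no intensity trend, and 325 and 116 with the replicate number as a block. With 1 library left out, 54 and 2 were higher without doxycycline replicates 1 and 2, and 1 and 0 without untreated replicates 1 and 2.

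The mature forms of the microRNA are shown with the seed, bases 2 to 8, in capitals, because a seed match in a 3′ UTR is the usual mark of a direct target. The sequences are from RefSeq (GRCm38.p6).
mmu-miR-202-3p: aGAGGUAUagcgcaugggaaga
mmu-miR-202-5p: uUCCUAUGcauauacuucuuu
Sites were sought as ATACCTC or TACCTCA for the 3p arm and CATAGGA or ATAGGAA for the 5p arm, each on the sense strand of the longest annotated 3′ UTR. None of the 46 measured proteasome genes held a 3p site, against 13.8% of 10519 tested genes. A 5p site was found in 2 of the 46 (4.35%), against 15.7%. The proteasome genes have short 3′ UTRs, with a median of 282 bases against 1133 bases for the tested genes. The members with a 5p site were Psma8 and Psmf1, which encodes PI31, a protein that binds the core and inhibits it in vitro. The sites of Psmf1, in capitals, lie at base 423 and base 899 of a 3′ UTR of 2822 bases on chromosome 2.
Psmf1 site at base 423: gtgtgatactgCATAGGActacgggattc
Psmf1 site at base 899: actgacaagagCATAGGAAcatgggtccag
Psmf1 stood at 11.6 and 10.95 FPKM with doxycycline, against 11.4 and 11.1 FPKM without, and the groups overlapped. Its log2 change was -0.002 ± 0.058 (SE), with a 95% interval from -0.14 to 0.14.

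None of the 46 tested members passed limma's test over all genes, with or without the replicate number as a block. Among all tested genes, 0.277% passed without the block and 3.70% with it. The lowest adjusted p of a member was 0.173 without the block and 0.0602 with it, both for Psma2. At an unadjusted p under 0.05 there were 6 members, all higher with doxycycline, where 8.46% of all tested genes were higher and 6.63% lower at that level. With the block there were 12, again all higher, where 22.4% of all tested genes were under that p and 12.6% were higher. Abundant genes were higher more often. Among the 1339 genes of at least 50 FPKM, 178 were higher and 74 lower at that p without the block, and 287 and 113 with it. Of the 33 members at that level, 5 were higher without the block and 11 with it, and none was lower. The changes of the members were small and closely measured. All 46 log2 changes of FPKM + 1 lay between -0.08 and 0.15, and their median SE was 0.046. The 95% interval of a change stayed within 0.25 of 0 on the log2 scale for 38 members and within 0.5 for 45. The exception at 0.5 was Psmb9.

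More members lay above 0 than below it. Their median log2 change was 0.06, at 0.05 in pair 1 and 0.04 in pair 2, where a pair is the doxycycline and the untreated library of the same number. The median of all tested genes was -0.002. Of the 46, 23 were higher with doxycycline in both pairs and 3 were lower in both, against 32.8% and 34.0% of all tested genes. Both doxycycline libraries lay above both untreated ones for 19 members and below them for 1, against 23.5% and 24.9% of all tested genes. The 1339 genes of at least 50 FPKM had a median of 0.02, with 46.1% of them higher in both pairs and 24.8% lower. Of the 33 members at that level, 19 were higher in both pairs and 2 lower, with a median of 0.06. Both doxycycline libraries lay above both untreated ones for 16 of these 33 and below them for 1, against 468 and 247 of the 1339 genes. With quantile normalization, which gives every library the same distribution of values, the median was 0.03 for the core and -0.0006 for the cap.

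**Figure D1:**
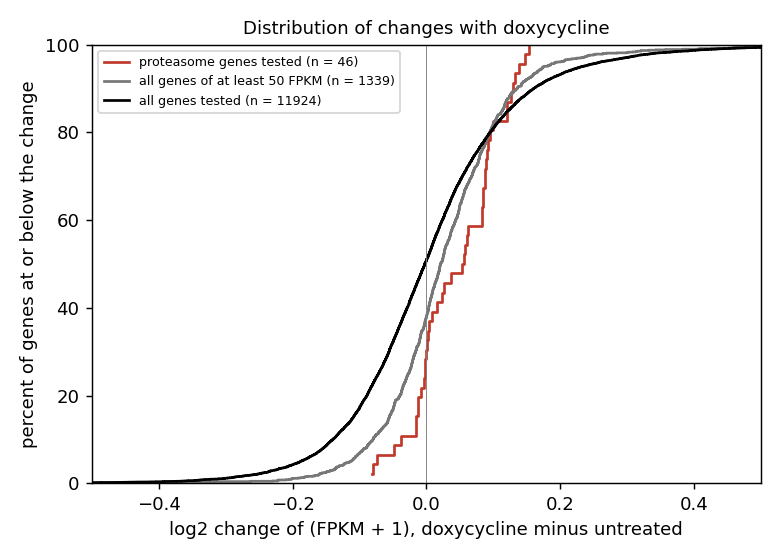
Share of genes (y axis, percent) at or below a given log2 change of FPKM + 1 with doxycycline (x axis) for the 46 proteasome genes tested, the 1339 genes of at least 50 FPKM and all 11924 genes tested. The proteasome curve runs from -0.08 to 0.15 and crosses the middle at 0.06, to the right of the abundant genes at 0.02 and of all genes at -0.002.

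The alpha subunits form the outer rings of the core and the gate through which substrates enter. Psma2 had the highest log2 change of FPKM + 1 of any tested member. By the ratio of means, the low genes Psme2 and Psma5 were higher, at 1.131 and 1.127. Psma2 stood at 137 and 137 FPKM with doxycycline, against 123 and 124 FPKM without, so the libraries of each group nearly coincided and the groups lay apart. Its mean was 137 ± 0.0523 FPKM with doxycycline and 123 ± 0.462 FPKM without (SD, n = 2 each), a ratio of 1.11. An SD of 2 libraries can understate the error of a value. The authors' own bounds for doxycycline replicate 1 ran from 131 to 143 FPKM, far wider than that SD. The log2 change was 0.15 ± 0.04 (SE), with a limma adjusted p of 0.173, and 0.0602 with the block. The gene lies on chromosome 13 from 14705508 to 14717940 (mm9).

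On the scale of FPKM + 1, Psma6 came next in the alpha ring, at 176 and 184 FPKM with doxycycline, against 159 and 169 FPKM without. The groups did not overlap, and the log2 change was 0.14 ± 0.05 (SE, limma adjusted p = 0.268). Psma1 had 95.9 and 98.9 FPKM with doxycycline and 89.1 and 94.1 FPKM without, again with no overlap. Psma4 had overlapping groups and a log2 change of 0.09. Psma7 was level at 157 and 159 FPKM with doxycycline and 158 and 159 FPKM without. Its 95% interval ran from -0.09 to 0.09.

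Psma3 and Psma5 stood far below the rest of the ring, although each core holds equal numbers of all alpha subunits. Psma3 had 5.62 and 6.38 FPKM with doxycycline and 6.64 and 6.09 FPKM without. Psma5 had 5.45 and 3.89 FPKM with doxycycline and 4.18 and 4.10 FPKM without. In both genes the groups overlapped. The other constitutive alpha subunits had means from 93.3 to 172 FPKM. Both low genes have near-identical copies elsewhere in the annotated transcripts: 3 pseudogenes of at least 95% identity over at least 50% of the coding bases for Psma3, and 2 for Psma5. How the authors' counting treated reads shared with such copies is not given in the sources used here, so their levels are uncertain, as is that of Psmb3 in the beta ring, which has 3. Of the 32 core and cap genes, 8 have such a copy, with a median level of 56.3 FPKM against 99.7 FPKM for the 24 without. The copies did not always go with a low level: Psmc1 has 2 and stood at a mean of 164 FPKM. The part of the copies in these levels was not tested. Without strand information, reads of overlapping genes cannot be told apart: Psma4, Psmb5, Psmd1 and Psme1 overlap another gene, none of which exceeded 2.62 FPKM.

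**Figure D2:**
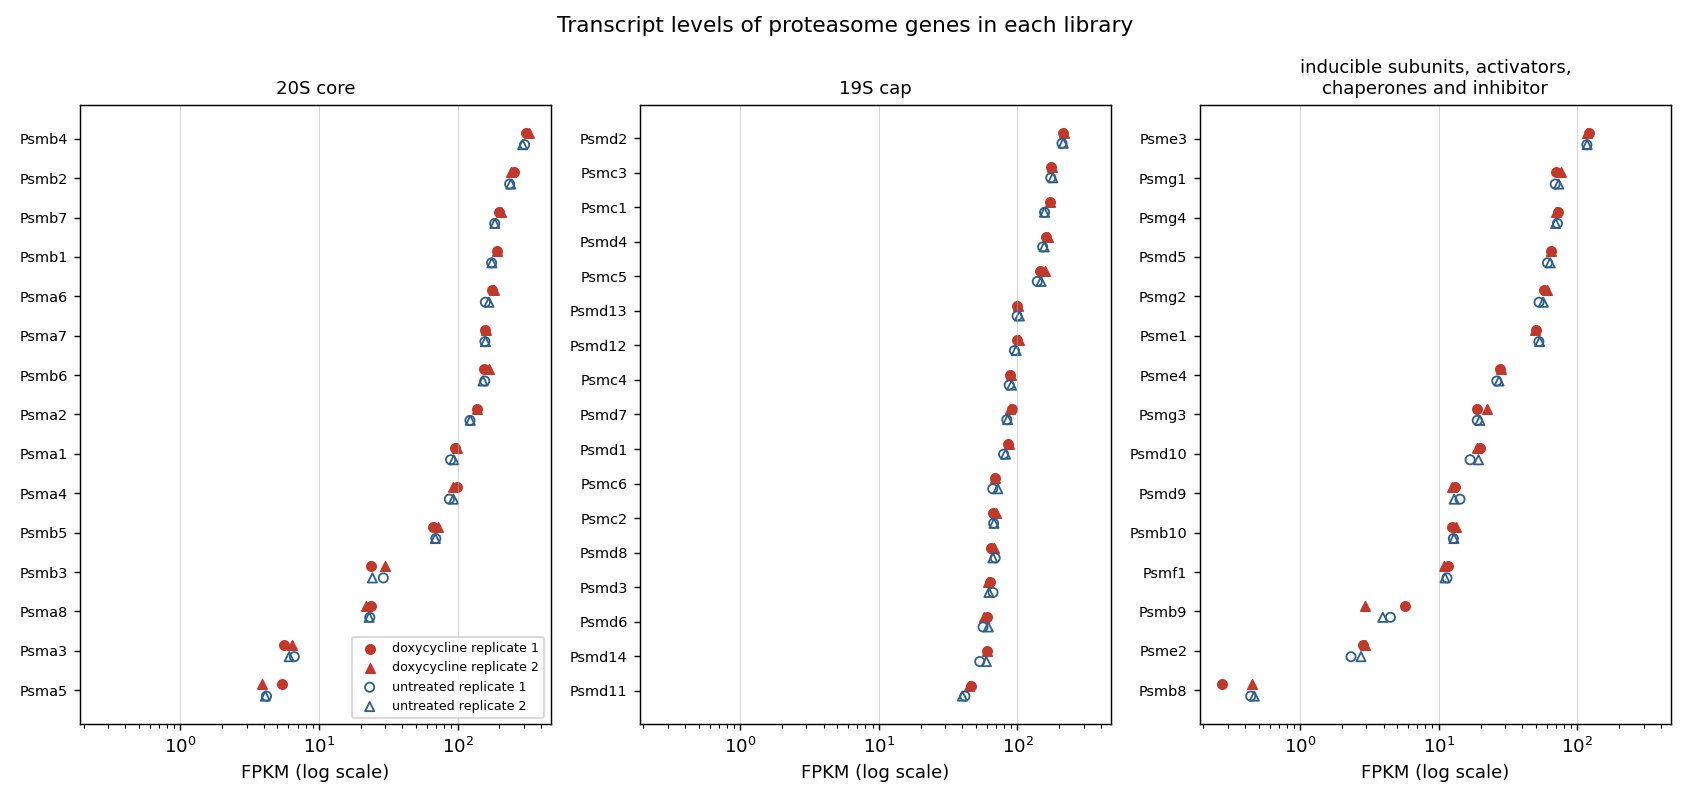
FPKM (x axis, log scale) of each member in each library, filled symbols for doxycycline and open symbols for untreated, ordered by mean level within the core, the cap and the other members. Psma3, Psma5 and Psmb3 stand below the other constitutive core genes, and the symbols of the 4 libraries nearly coincide for most genes. Psmb11, at or near 0, is not drawn.

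Psma8, the alpha subunit that takes the place of Psma7 in spermatocytes, was measured at 23.9 and 22.0 FPKM with doxycycline, against 23.3 and 22.996 FPKM without. That made up 13.2% and 12.1% of the sum of Psma7 and Psma8 with doxycycline and 12.9% and 12.6% without. The groups overlapped, and the log2 change was -0.01 ± 0.05 (SE).

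The beta subunits hold the proteolytic chamber. Psmb4, a structural subunit, was the most abundant member, at 311 and 329 FPKM with doxycycline and 305 and 295 FPKM without. Its groups did not overlap, and its log2 change was 0.10 ± 0.05 (SE, limma adjusted p = 0.410). Psmb1, another subunit without a catalytic site, had 191 and 193 FPKM with doxycycline and 176 and 177 FPKM without. Each group was tight and the groups lay apart, with a log2 change of 0.12 ± 0.04 (SE, adjusted p = 0.238 by limma). The authors' bounds for doxycycline replicate 1 were wider than that spread, from 185 to 198 FPKM. Psmb2 was at 256 and 244 FPKM with doxycycline, against 238 and 242 FPKM without. Psmb3 had changes of opposite sign in the pairs, with 23.8 and 29.9 FPKM with doxycycline and 29.1 and 24.3 FPKM without, and its groups overlapped fully.

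Of the catalytic subunits, Psmb7, with trypsin-like activity, had 199 and 205 FPKM with doxycycline and 185 and 186 FPKM without. The groups did not overlap, and the log2 change was 0.12 ± 0.04 (SE, limma adjusted p = 0.256). Psmb6, the caspase-like subunit, had 155 and 167 FPKM with doxycycline and 157 and 153 FPKM without. Psmb5, the chymotrypsin-like subunit and the main target of proteasome inhibitor drugs, had 66.3 and 72.3 FPKM with doxycycline and 69.7 and 69.1 FPKM without. The groups of Psmb6 and Psmb5 overlapped, with log2 changes of 0.06 ± 0.05 and -0.003 ± 0.050 (SE). Over the 15 core genes, Psma8 included, the median log2 change was 0.09. Of these, 7 (46.7%) were higher in both pairs and none was lower in both. The shares were 32.8% and 34.0% for all tested genes, and 46.1% and 24.8% for those of at least 50 FPKM.

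The inducible catalytic subunits were low, and their levels had the same order as those of their counterparts. The level of Psmb5 is uncertain, and with it its place in that order and its ratio to Psmb8, since a pseudogene matches all of its coding bases at 98.9% identity. Psmb8, the counterpart of Psmb5, had 0.271 and 0.445 FPKM with doxycycline and 0.439 and 0.466 FPKM without. Its mean was under 1 FPKM and it was not tested. The authors' own bounds for doxycycline replicate 1 ran from 0.0497 to 0.492 FPKM, a range that holds the values of the other libraries. Psmb9, the counterpart of Psmb6, had 5.71 and 2.94 FPKM with doxycycline and 4.47 and 3.94 FPKM without. The doxycycline libraries lay on either side of the untreated ones, and the 95% interval of its log2 change was the widest of all members, from -0.58 to 0.55. Psmb10, the counterpart of Psmb7, was the most abundant of the 3, at 12.4 and 13.4 FPKM with doxycycline and 12.7 and 12.9 FPKM without. Its groups overlapped, and its log2 change was 0.01 ± 0.06 (SE).

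Set against their constitutive counterparts, the inducible subunits were a small part of the summed FPKM. Psmb8 made up 0.407% and 0.612% of the sum of Psmb8 and Psmb5 with doxycycline and 0.626% and 0.669% without. Psmb9 made up 3.55% and 1.73% of the sum with Psmb6 with doxycycline and 2.77% and 2.52% without. Psmb10 made up 5.87% and 6.12% of the sum with Psmb7 with doxycycline and 6.42% and 6.47% without. Both doxycycline libraries lay below both untreated ones for the shares of Psmb8 and Psmb10, while those of Psmb9 overlapped. An exact two-sided permutation test gave p = 0.333 for Psmb8 and Psmb10, the smallest that 2 libraries against 2 allow, and p = 1 for Psmb9. Adjusted over the 3 shares, these were 0.5, 0.5 and 1. The share of Psmb10 differed by -0.452 percentage points, beside a higher value of its partner Psmb7 with doxycycline and a level Psmb10. Psmb11, the catalytic subunit of the thymus, was at 0.0109 and 0 FPKM with doxycycline, against 0.00826 and 0.00705 FPKM without.

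**Figure D3:**
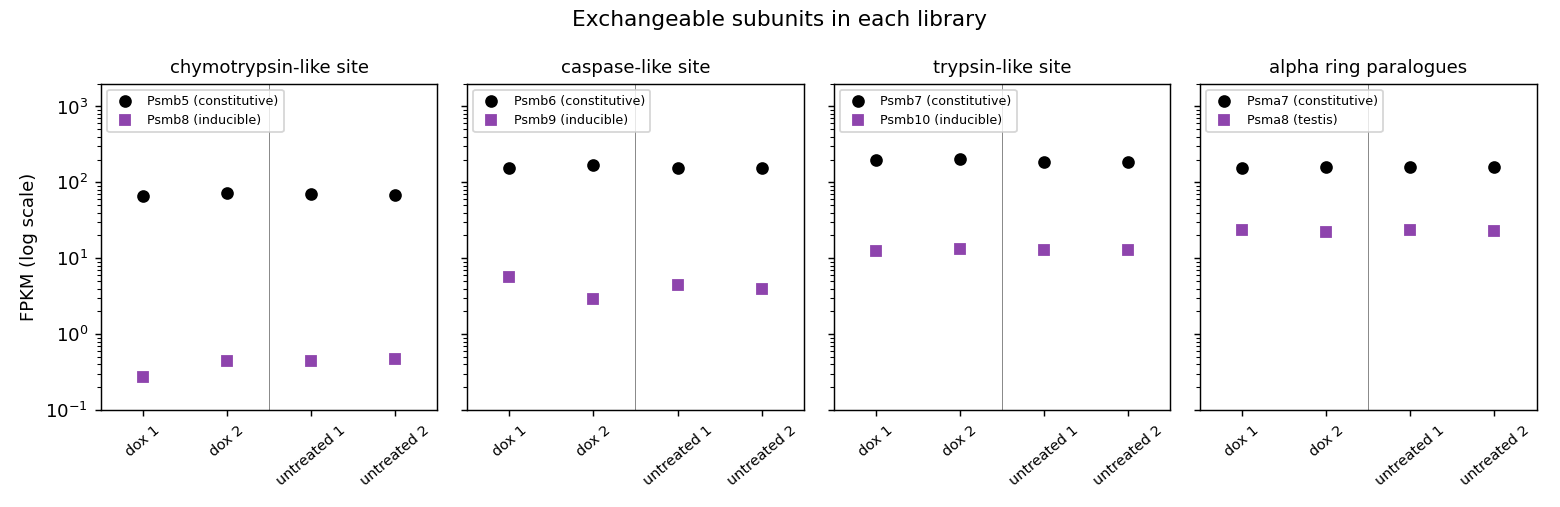
FPKM (y axis, log scale) of the 3 constitutive catalytic subunits and their inducible counterparts, and of Psma7 and Psma8, in each library, with doxycycline left of the dividing line and untreated right of it. The constitutive gene lay above its counterpart in every library, by 148 to 245 times for Psmb5 over Psmb8, 27.1 to 56.9 for Psmb6 over Psmb9, 14.5 to 16.0 for Psmb7 over Psmb10 and 6.55 to 7.26 for Psma7 over Psma8.

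Markers of immune cells, the cells best known for the immunoproteasome, were measured as well. The 17 macrophage and blood markers in the files summed to 9.25 and 12.3 FPKM with doxycycline and to 9.25 and 9.23 FPKM without. Cd68, a lysosomal protein of macrophages, had the highest mean of the list, at 4.06 and 4.63 FPKM with doxycycline and 4.11 and 3.52 FPKM without, close to the mean of 4.27 FPKM for Psmb9. Pecam1 and Hba-a1 followed at means of 2.53 and 1.23 FPKM, and every other marker in the files averaged under 1 FPKM. Among those were Cd14 at 0.872 FPKM, Lyz2 at 0.259, Itgam at 0.0468, Csf1r at 0.0070 and Emr1 at 0.0037. The leukocyte gene Ptprc stood at 0.0874 to 0.122 FPKM with doxycycline and 0.106 to 0.135 without, and Tyrobp and Hbb-b1 were listed at 0 in every library. None of the 3 tested markers passed, with log2 changes of 0.23 for Hba-a1, 0.15 for Cd68 and 0.04 for Pecam1. Their part in the levels of the inducible subunits was not tested. Irf1, an interferon-induced transcription factor that drives these subunits, was at 24.99 and 25.5 FPKM with doxycycline and 28.5 and 24.6 FPKM without, and the groups overlapped. Of 12 tested interferon regulators none passed without the block and 1 passed with it, the interferon receptor chain Ifnar2. It had 6.50 and 6.07 FPKM with doxycycline and 4.37 and 4.85 FPKM without, with no overlap. Its log2 change was 0.38 ± 0.08 (SE), with a limma adjusted p of 0.145, and 0.0456 with the block. The lowest log2 change on the list was that of Ifngr1, a chain of the interferon gamma receptor, at -0.12 (adjusted p = 0.319, limma).

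The MHC class I pathway, which carries proteasome products to the cell surface, had 9 tested genes with a median log2 change of 0.13. Of the 9, 7 were higher in both pairs and 2, Tapbp and Lnpep, were lower in both. The shares were 32.8% and 34.0% for all tested genes, and 46.1% and 24.8% for those of at least 50 FPKM. Only Canx, Calr and Pdia3 of the 9 reached that level. None passed without the block. Canx, a chaperone of the endoplasmic reticulum that helps fold MHC class I, had 77.7 and 80.7 FPKM with doxycycline and 66.3 and 72.2 FPKM without. Its log2 change was 0.19 ± 0.05 (SE), with an adjusted p of 0.209, and 0.0428 with the block (limma). B2m, the light chain of MHC class I, had 24.99 and 27.9 FPKM with doxycycline and 22.5 and 23.05 FPKM without, with an adjusted p of 0.221 (limma). Neither gene's groups overlapped. Tap1 and Tap2, which pump peptides into the endoplasmic reticulum, and 3 others were under 1 FPKM on average and were not tested. The lowest log2 change on the list was that of Tapbp, which bridges the peptide pump and MHC class I, at -0.11.

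Promoters of 4 members are shown because they are a catalytic gene and its inducible counterpart, and the tested members with the highest and the lowest log2 change of FPKM + 1. Each window holds 250 bases before and 50 after the start of the gene, from RefSeq (GRCm38.p6). Capitals mark matches, on either strand, to TGACNNNGC (the antioxidant response element), the interferon-stimulated type (a pair of GAAA with any 2 bases between them), TTCNNNGAA (the STAT type), CCAAT (the box bound by nuclear factor Y), GGGCGG (the GC box) and the palindrome made of GCGCA and its reverse complement (the site of nuclear respiratory factor 1). The matches may overlap each other.
Psmb5 promoter, chr14:54617946-54618245, minus strand: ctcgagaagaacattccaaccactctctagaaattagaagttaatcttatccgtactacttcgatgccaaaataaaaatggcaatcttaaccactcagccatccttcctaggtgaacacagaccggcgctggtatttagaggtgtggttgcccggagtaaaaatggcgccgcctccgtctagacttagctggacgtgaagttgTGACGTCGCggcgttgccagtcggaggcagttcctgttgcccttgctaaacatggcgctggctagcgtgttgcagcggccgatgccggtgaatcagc
Psmb8 promoter, chr17:34197945-34198244, plus strand: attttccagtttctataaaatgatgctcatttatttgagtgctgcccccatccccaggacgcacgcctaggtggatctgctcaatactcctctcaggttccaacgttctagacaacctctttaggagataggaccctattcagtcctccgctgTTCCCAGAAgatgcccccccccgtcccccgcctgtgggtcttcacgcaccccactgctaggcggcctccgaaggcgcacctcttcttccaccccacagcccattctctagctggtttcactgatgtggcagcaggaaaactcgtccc
Psma2 promoter, chr13:14612992-14613291, plus strand: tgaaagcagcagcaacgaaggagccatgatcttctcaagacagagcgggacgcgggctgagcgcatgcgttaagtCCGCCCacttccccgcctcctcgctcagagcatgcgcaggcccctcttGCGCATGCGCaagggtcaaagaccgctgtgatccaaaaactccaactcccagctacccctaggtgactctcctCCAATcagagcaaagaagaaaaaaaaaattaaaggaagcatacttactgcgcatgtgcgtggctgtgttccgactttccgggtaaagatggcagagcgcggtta
Psme1 promoter, chr14:55578244-55578543, plus strand: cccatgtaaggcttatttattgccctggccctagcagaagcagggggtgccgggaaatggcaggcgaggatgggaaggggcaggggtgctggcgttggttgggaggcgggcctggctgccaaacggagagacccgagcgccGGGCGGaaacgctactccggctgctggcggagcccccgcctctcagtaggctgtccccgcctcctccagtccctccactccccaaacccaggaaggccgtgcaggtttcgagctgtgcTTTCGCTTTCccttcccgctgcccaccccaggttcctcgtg
Promoter windows were found for 40 of the 48 members, 43 windows in all. TGACNNNGC was in 6 of them (14.0%), against 12.4% of 32851 windows of all genes. The interferon-stimulated type was in 5 (11.6%), against 3.44%, and TTCNNNGAA in 3 (6.98%), against 8.30%. The first were those of Psmb3, Psmd4, Psmd9, Psme1 and Psmg4, and the second those of Psmb8, Psmd2 and Psmg1. Among the other inducible catalytic genes, the window of Psmb9 matched only CCAAT and GGGCGG, and that of Psmb10 had no match. CCAAT was in 14 (32.6%), against 37.4%, GGGCGG in 24 (55.8%), against 35.7%, and the palindrome in 2 (4.65%), against 0.971%. These are matches of letters in a window and were not tested.

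The cap consists of a base, with a ring of ATPases that unfold the substrate, and a lid, which removes ubiquitin. Psmd2, a scaffold of the base, was the most abundant cap gene at 214 and 218 FPKM with doxycycline and 209 and 214 FPKM without, with overlapping groups. Among the ATPases, Psmc1 had 171 and 172 FPKM with doxycycline and 157 and 157 FPKM without. Its groups were tight and lay apart, with a log2 change of 0.13 ± 0.04 (SE; adjusted p = 0.216, limma), or 0.0881 with the block. Here too the authors' bounds for doxycycline replicate 1 were wider, from 166 to 176 FPKM. The other ATPases had smaller changes, 4 of them between -0.01 and 0.02, and Psmc5 at 0.09. Psmd4, a ubiquitin receptor, and the scaffold gene Psmd1 had log2 changes of 0.08 and 0.09, and in both the groups lay apart.

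In the lid, Psmd11 was both the least abundant cap gene and the one with the highest log2 change. It had 45.9 and 44.9 FPKM with doxycycline and 41.8 and 40.1 FPKM without. The groups did not overlap, and the log2 change was 0.15 ± 0.04 (SE, limma adjusted p = 0.215, and 0.0822 with the block). The gene lies on chromosome 11 from 80242116 to 80285635 (mm9), and it too has 2 near-identical copies. Psmd3 had the lowest log2 change in the cap, with 63.3 and 61.2 FPKM with doxycycline and 66.6 and 62.2 FPKM without, overlapping groups and a log2 change of -0.05 ± 0.05 (SE). Psmd14, the deubiquitinase that strips ubiquitin from substrates, had 59.8 and 59.9 FPKM with doxycycline and 53.4 and 59.6 FPKM without. Over the 17 cap genes the median log2 change was 0.03, at 0.06 in pair 1 and 0.02 in pair 2. Of these, 9 (52.9%) were higher in both pairs and 1, Psmd3, was lower in both. That compares with 32.8% and 34.0% of all tested genes, and 46.1% and 24.8% of those of at least 50 FPKM.

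**Figure D4:**
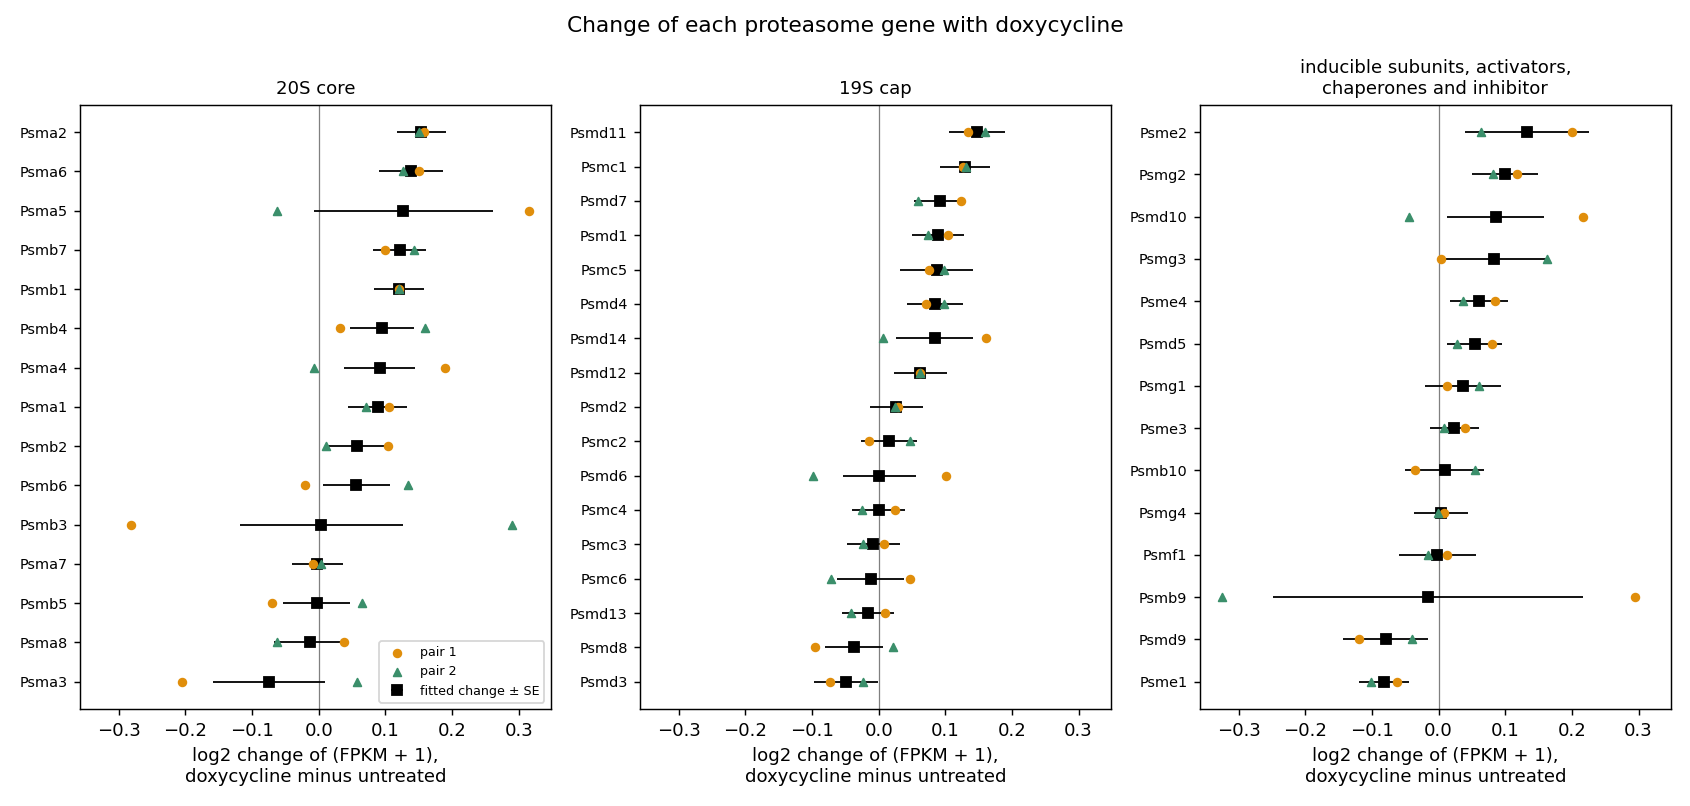
Log2 change of FPKM + 1 with doxycycline (x axis) for each tested member, by class and ordered by size, with circles for pair 1, triangles for pair 2 and squares with bars for the fitted change and its SE. Most members lie between -0.1 and 0.2, and the pairs of Psmb3 and Psmb9 lie on opposite sides of 0.

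The activators spanned mean levels from 2.70 to 118 FPKM. Psme3 (PA28 gamma), a nuclear activator that works without ubiquitin, was the most abundant at 120 and 118 FPKM with doxycycline and 117 and 118 FPKM without. Psme4 (PA200), the activator used in spermatids to degrade acetylated histones, had 27.8 and 27.9 FPKM with doxycycline and 26.2 and 27.2 FPKM without. In both genes the doxycycline values lay just above the untreated ones, with log2 changes of 0.02 ± 0.04 and 0.06 ± 0.04 (SE), the first of which was -0.008 with quantile normalization. Psme1 and Psme2 (PA28 alpha and beta) are interferon-inducible and form a joint ring. Psme1 had the lowest log2 change of FPKM + 1 of all tested members, with 50.5 and 49.7 FPKM with doxycycline and 52.7 and 53.4 FPKM without. By the ratio of means, Psmd9 (0.942) and Psma3 (0.943) lay slightly below Psme1 (0.944). Psme1 was the only member with both doxycycline libraries below both untreated ones. Its log2 change was -0.08 ± 0.04 (SE, limma adjusted p = 0.373), with a 95% interval from -0.17 to 0.01. Psme2 had 2.82 and 2.91 FPKM with doxycycline and 2.32 and 2.74 FPKM without, a log2 change of 0.13 ± 0.09 (SE). A transcript of another gene matches its coding bases at 99.3% identity, so its level, like its imbalance with Psme1, is uncertain.

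Dedicated chaperones assemble the core and the base. Psmg1, which pairs with Psmg2 to gather the alpha ring, was the most abundant at 69.8 and 76.5 FPKM with doxycycline and 69.1 and 73.3 FPKM without. Psmg2 had the highest log2 change in this class, with 57.5 and 60.2 FPKM with doxycycline and 52.9 and 56.8 FPKM without, and a log2 change of 0.10 ± 0.05 (SE, limma adjusted p = 0.404). Psmd9, a chaperone of the base, was the least abundant and had the lowest log2 change, with 13.01 and 12.5 FPKM with doxycycline and 14.2 and 12.9 FPKM without, a log2 change of -0.08 ± 0.06 (SE). The groups overlapped for Psmg1 and Psmd9 and lay apart for Psmg2. For the 7 chaperones the median was 0.05, and 4 of them (57.1%) were higher and 1 was lower in both pairs. All tested genes had 32.8% and 34.0%, and those of at least 50 FPKM 46.1% and 24.8%.

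Genes that work beside the proteasome were followed as a list. Of 19 tested partners, among them shuttle proteins, deubiquitinases and assembly factors, none passed with or without the block, and the median log2 change was 0.01. The shuttle gene Ubqln1 had the highest log2 change, with 54.3 and 56.0 FPKM with doxycycline and 49.0 and 50.1 FPKM without (log2 change 0.15, limma adjusted p = 0.206). Midn, whose product carries short-lived nuclear proteins to the proteasome, had the lowest log2 change, with 82.0 and 79.3 FPKM with doxycycline and 90.6 and 91.1 FPKM without (log2 change -0.17, limma adjusted p = 0.161). With the block their adjusted p were 0.0746 and 0.0543 (limma). Nfe2l1, the transcription factor that raises proteasome genes when the proteasome is impaired, was level at 68.2 and 69.7 FPKM with doxycycline and 69.0 and 68.0 FPKM without. Its list of 12 tested regulators had a median of -0.0004, with Nfe2l2, its paralogue for oxidative stress, at 0.14 and the dimer partner Mafg at -0.12, and none passed. Of 8 ubiquitin genes and activating enzymes none passed either. Their median was -0.04, with Uba3 at 0.08 and Uba6 at -0.09.

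Genes listed as markers of other cell types, and of spermatogonia, stood beside these values as follows. The lists alone do not show that cells of those other types were present. The 16 feeder fibroblast markers summed to 268 and 255 FPKM with doxycycline and to 260 and 234 FPKM without. Of the 15 tested, Mmp2 was higher, with a log2 change of 0.55 ± 0.06 (SE, limma adjusted p = 0.0478), and with the block Thy1 passed as well (adjusted p = 0.0312, limma). The call of Mmp2 was close to the threshold and was lost with no filter on low values and with no intensity trend, where no gene was called higher. Acta2 had the lowest log2 change, at -0.37. A listed gene need not be particular to fibroblasts, and which cells gave the Thy1 transcripts was not tested. The 11 Sertoli markers summed to 10.8 and 11.1 FPKM with doxycycline and to 8.98 and 9.28 FPKM without, with Fshr listed at 0 in every library. None of the 3 tested passed, and Sox9 stood at 0.26 and Wt1 at -0.003. Of 17 tested spermatogonial markers none passed without the block and 2, Utf1 and Nanos3, were lower with it, with log2 changes of -0.30 and -0.298 (adjusted p = 0.0479 and 0.0413, limma), while Kit was the highest at 0.19. Their part in the proteasome values was not tested. In bulk RNA, fewer cells of a type and less RNA per cell cannot be told apart.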

How the data were processed

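The labels' protocols give TRIzol for the extraction of total RNA and a HiSeq4000 for sequencing. The authors deposited FPKM for each gene and library, adjusted for transcript length and mapped fragments, per the file headers. The submitters' processing notes name TopHat2 2.0.6, Cufflinks 2.0.2, Cuffdiff and mm9. No source used here states the annotation or the strand setting. Values of 259 symbols with several lines were added up, none of them a member. All 48 members had the status OK in doxycycline replicate 1, the table with loci and bounds.

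limma 3.58.1 in R 4.3.3 tested 11924 genes averaging 1 FPKM or more, on log2 values after adding 1 FPKM, with a trend of variance on intensity, two-sided, and Benjamini-Hochberg adjustment over all of them. Log2 changes on that scale understate those of low genes. Residual degrees of freedom were 2, or 1 with the block, and moderation added 4.23 and 6.21. The script was tested on simulated data. The p-values cover the spread among these libraries and clones alone. Equal replicate numbers were read as 1 clone, from the design text, although no title says so; deviations from the group means correlated at 0.215 between such libraries. Libraries correlated at 0.990 to 0.996, with no duplicate library.

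Near-identical copies were sought with blastn 2.17.0 among GENCODE M21 transcripts, from the longest coding sequence of each gene; the same annotation gave the 3′ UTRs. No coordinates were carried between builds. Alternatives were other pseudocounts, filters, scalings and moderation, the highest line per symbol, each library left out and the replicate block. Members, lists and rules were chosen with earlier results of these data known. Members named were the inducible catalytic subunits and their counterparts, and in each class the most and least abundant and those with the highest and lowest log2 change, and, of each list, those past the threshold with or without the block and those with the highest and lowest log2 change. Psma1, Psma4, Psma6, Psma7, Psma8, Psmb1, Psmb2, Psmb3, Psmc1, Psmc5, Psmd1, Psmd4, Psmd14, Psme4, Nfe2l1, Irf1, Tap1, Tap2, Cd68 and Psmb11, and the level of 50 FPKM, were added after their values were seen.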

Additional observations from a re-analysis of the deposited data

Results flagged for a closer look

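Of the 46 tested members, 20 moved in opposite directions in the 2 same-numbered pairs. Of all tested genes, 32.8% were higher in both pairs and 34.0% were lower in both, and the rest were neither. In 2 of the 20 members each pair moved by at least 0.25 on the log2 scale, a limit set after the values were seen. The share of all genes past that limit is not given here. Psmb3 was lower with doxycycline in pair 1 and higher in pair 2 (log2 changes of -0.28 and 0.29), and the pairs differed by -0.57. Psmb9 was higher in pair 1 and lower in pair 2 (0.29 and -0.33), a difference of 0.62. Neither difference was tested, since each pair has 1 library a group.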

How the results depend on the processing

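No proteasome gene passed in the settings tried, and the lowest adjusted p of a member ran from 0.0602 with the replicate block to 0.52 (limma). The counts over all genes, 26 higher and 7 lower, were 0 and 1 with no filter, 76 and 12 with a filter of 5 FPKM, 0 and 2 with no intensity trend, and 325 and 116 with the replicate block. Quantile normalization gave 40 higher. Leaving out 1 library gave 0 to 54 higher (54 and 2 without doxycycline replicates 1 and 2, 1 and 0 without untreated replicates 1 and 2) and 2 to 6 lower. Of the 32 core and cap genes, 16 (50%) were higher in both pairs and 1 was lower, where 46.1% and 24.8% of all genes of at least 50 FPKM were. Of the 32, 3 were lower with median scaling, and with quantile normalization 12 were higher and 4 lower. That normalization put the core median at 0.0349, the cap median at -0.0006 and the chaperone median at 0.0388. With 1 library left out the core median ran from 0.0670 to 0.1096, the cap median from 0.0101 to 0.0618 and the chaperone median from 0.0223 to 0.0855. Without members that have near-identical copies, a choice made after seeing the data, the core median was 0.0917 and the cap median 0.0085. Of 36 genes followed, 11 changed sign in some setting, 2 of them without leaving out a library: Psmb3 was at -0.0011 with quantile normalization and -0.0020 with median scaling, and Psme3 at -0.0078 with quantile normalization. With 1 library left out the log2 change ran from -0.0645 to 0.0585 for Psmb5, -0.1522 to 0.0044 for Psma3, -0.0733 to 0.3270 for Psma5, -0.0143 to 0.0100 for Psma7, -0.3993 to 0.3678 for Psmb9, -0.0424 to 0.0605 for Psmb10, -0.1561 to 0.1636 for Psmb3, -0.0373 to 0.0337 for Psmf1, -0.0714 to 0.0466 for Psma8 and -0.0976 to 0.0006 for Psmd3. With the replicate block Canx (adjusted p = 0.0428) and Ifnar2 (0.0456) passed, and no other call among the genes followed differed (limma). Thy1, Utf1 and Nanos3 also passed with the block and not without it, but they were not among the 36 genes followed. The causes were not tested. Depth in reads is unknown, and the authors' bounds on a value were used for doxycycline replicate 1 only.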
